A study of Mus musculus with 6 samples.

Results

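The nuclear genes of oxidative phosphorylation were taken from the RNA sequencing of mouse medulloblastoma cells by their gene symbols: the Nduf subunits and Ndufaf assembly factors of complex I, Sdha to Sdhd, the Uqcr genes with Cyc1, Cycs, the Cox4 to Cox8 genes, and every symbol that starts with Atp5. Of 24063 symbols, 93 matched. They comprised 7 core and 28 accessory subunits of complex I, 4 subunits of complex II, 9 of complex III, 1 gene for cytochrome c, 20 genes for complex IV and 15 for complex V. A further 7 were Ndufaf assembly factors, and 2 matched by symbol only, since RefSeq now calls Atp5s Dmac2l and Atp5sl Dmac2. All cells were stem-like medulloblastoma cells from cerebellum with the genotype Math1-Cre; SmoM2, in which an always-active Smoothened receptor is switched on by a Cre recombinase that granule neuron progenitors express. The control group carried the guide sgGal4-4 and is labelled WT. The other groups carried sgMiat-6 or sgMiat-96, guides against the long noncoding RNA Miat, and are labelled as Miat knockdown. Each group had 2 libraries. The age of the mice, the Cas protein, and whether a line was 1 clone or a replicate was a separate culture are not stated in the labels, so the p-values measure the spread between these samples, which may be technical.

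Oxidative phosphorylation makes most of a cell's ATP in respiring tissue. Complex I takes electrons from NADH and complex II from succinate, complex III passes them to cytochrome c, complex IV hands them to oxygen, and complex V (ATP synthase) uses the resulting proton gradient. Most subunits are encoded in the nucleus and imported into mitochondria, where they join a few subunits encoded by mitochondrial DNA. The files hold no mitochondrially encoded gene among the symbols looked up, so those partners were not analysed here. Medulloblastoma of the Sonic hedgehog type, which SmoM2 models, arises from granule neuron progenitors of the cerebellum.

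Counts per library, with 1 row kept for each symbol, summed to between 18438891 and 19650274. Miat had 140 and 139 counts in the control libraries and 0 in each of the 4 libraries with a Miat guide. The lineage factor Atoh1, also known as Math1, was at 0 in all 6 libraries. The granule neuron progenitor list as a whole summed to 129.8 and 122 CPM (the count divided by library size as scaled for composition) in the control and to between 209.8 and 231 CPM with the guides, and 4 of its 5 members tested rose. The neural stem cell list summed to 4616 and 4458 CPM in the control and to between 6597 and 7899 CPM with the guides. The astrocyte list, mostly the glutamate transporter Slc1a3, summed to 2077 and 2059 CPM in the control, 822 and 722 with sgMiat-6 and 569.9 and 570.8 with sgMiat-96, while its marker Gja1 was at 0 in every library. The oligodendrocyte list summed to 181 and 160.0 CPM in the control and to between 43.3 and 54.2 CPM with the guides, and Mag was at 0 in every library. Tested members of a list did not all share a direction. In the neural stem cell list 3 of 7 rose and 1 fell. In the astrocyte list 1 of 6 rose and 5 fell, and in the oligodendrocyte list 1 of 4 rose and 2 fell. Of all genes tested, 33.1% rose and 33.4% fell. The sums of the 4 lists moved with the groups, and their part in the results below was not tested. The microglia, endothelium, fibroblast, erythroid and muscle lists were low, between 0.15 and 13.8 CPM in every library, but some of these also moved. The fibroblast and mural cell list fell from 9.84 and 8.01 CPM in the control to between 0.87 and 1.73 with the guides. The endothelium list was at 8.14 and 8.97 CPM in the control, 13.8 and 10.8 with sgMiat-6 and 6.63 and 6.98 with sgMiat-96.

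Most transcripts of the oxidative phosphorylation genes rose with the Miat guides, and some rose in each complex. In the 4 libraries with a Miat guide against the 2 controls, 73 of the 89 genes that passed the filter on low counts rose, 5 fell and 11 did not pass the test (edgeR quasi-likelihood, Benjamini-Hochberg adjusted p under 0.05 over 13220 genes). Of all genes tested, 33.1% were called higher and 33.4% lower. The median log2 fold change was 0.70 for these genes and 0.00 for all genes. Counted among the 73, Cox8b and Cox6b2 passed the filter only through the Miat-guide libraries, so their calls add no support. Without sgGal4-4 replicate 2, 67 rose and 3 fell, where 24.9% and 26.9% of all genes were called. Against this stood a shift that touched the whole library: short transcripts rose in general, and these transcripts are short. With the length trend of all genes removed, 49 of the 89 were higher, 15 lower and 25 uncalled, with a median of 0.24, where 32.6% of all genes were called higher and 32.5% lower. In bulk samples, fewer cells of a type and less RNA per cell cannot be told apart.

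As a share of all counts, the 93 genes took 1.37% and 1.35% in the control libraries, 1.75% and 2.00% with sgMiat-6 and 2.39% and 2.15% with sgMiat-96. The groups did not overlap. Complex V took the most of this, at 0.508% and 0.514% of counts in the control and 0.853% and 0.800% with sgMiat-96. Complex IV went from 0.253% and 0.244% to 0.570% and 0.485% between the same groups. The accessory subunits of complex I went from 0.242% and 0.229% to 0.424% and 0.372%.

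**Figure D1:**
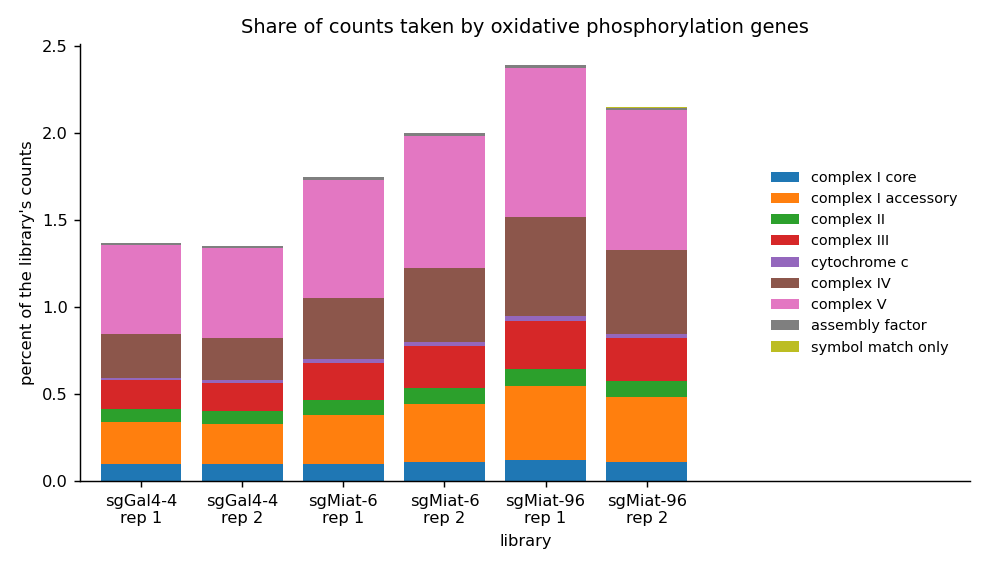
Percent of each library's counts taken by the nuclear oxidative phosphorylation genes, stacked by class, 1 bar per library with no error bar. The bars reach 1.37% and 1.35% in the sgGal4-4 libraries and 2.39% and 2.15% in the sgMiat-96 libraries, with the sgMiat-6 libraries between them.

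The classes differed in the size of the median and in how many members passed. Complex IV had a median log2 fold change of 0.92 over 16 genes tested, complex V 0.79 over 15, the accessory subunits of complex I 0.71 over 28, complex III 0.68 over 9, the core subunits of complex I 0.63 over 7, the Ndufaf factors 0.52 over 7 and complex II 0.39 over 4. Cytochrome c, a single gene, was at 0.98. The 16 complex IV genes include Cox8b and Cox6b2, which passed the filter only through the Miat-guide libraries. A median without them was not computed, so the place of complex IV in this order may rest partly on them. The standard deviation of a class median between replicates, pooled over groups, ran from 0.10 for complex II to 0.19 for complex IV, and replicates shifted the classes together, so that it is not the spread of a difference between classes. No test was made between classes, since their genes share the same 6 libraries.

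**Figure D2:**
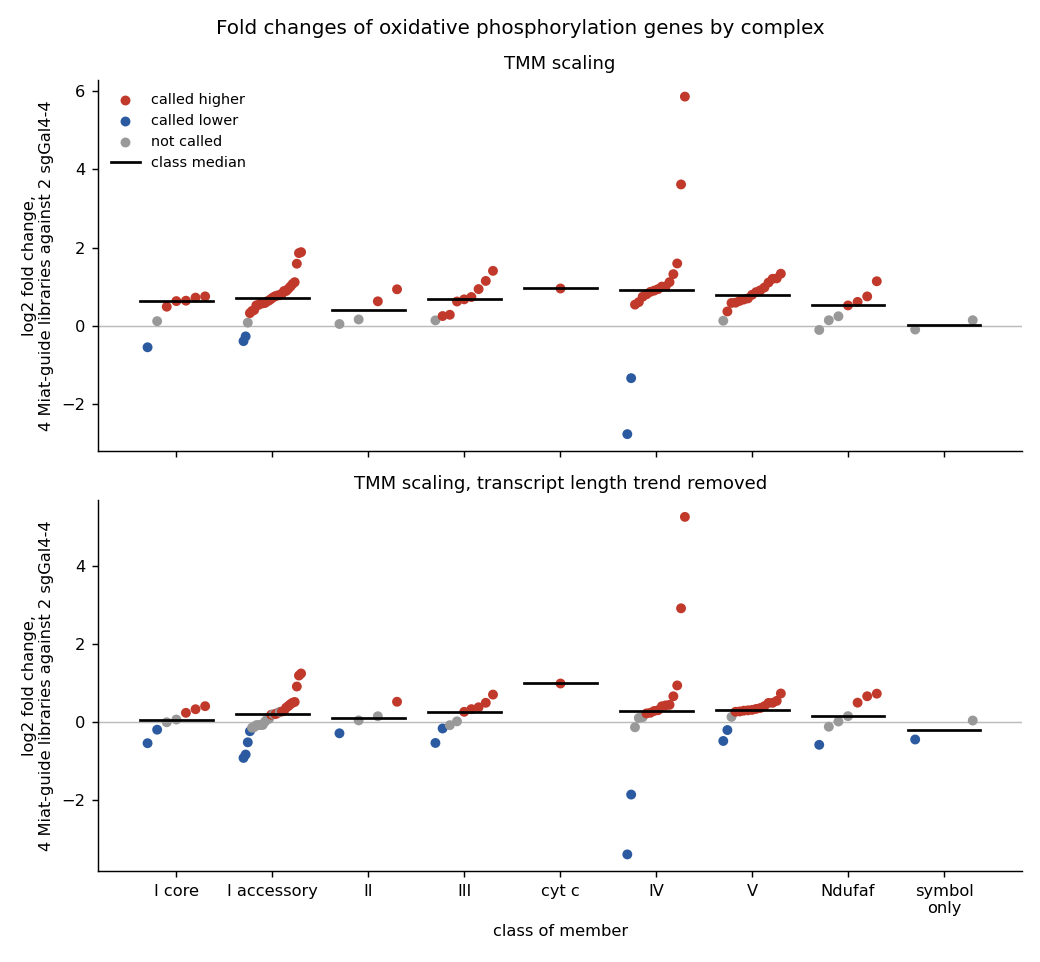
Log2 fold change of each gene tested, Miat-guide libraries against sgGal4-4, by class; points are genes coloured by the edgeR call and black lines are class medians. In the upper panel all class medians of the complexes lie above 0, from 0.39 for complex II to 0.92 for complex IV; in the lower panel, with the length trend removed, they lie between 0.06 and 0.31, and cytochrome c stays at 1.01.

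Transcript length moved with the fold changes across the whole table. The genes tested here had a median transcript length of 739 bp, against 2843.5 bp for all genes tested. Over all genes, the median log2 fold change was 0.58 below 600 bp, 0.56 from 600 bp, 0.44 from 1000 bp, 0.20 from 1500 bp, -0.04 from 2500 bp and -0.39 from 4000 bp, each class ending where the next begins. The oxidative phosphorylation genes had medians of 0.94, 0.76, 0.55, 0.59 and 0.53 in the first 5 of these classes, in the same order, and no member in the last. Their medians thus lay above those of all genes in each class that held members, and by most from 2500 bp, a class with 6 members. The share of all genes called higher also changed with length. Below 600 bp 31 of 33 members rose, beside 47.1% of all genes, and from 600 bp 18 of 22, beside 60.2%. From 1000 bp it was 11 of 16, beside 56.5%, from 1500 bp 9 of 12, beside 42.1%, and from 2500 bp 4 of 6, beside 28.6%. Of the 18 members of 1500 bp or more, 13 rose, 1 fell and 4 did not pass. The mean length per count of a library falls when short transcripts take more of the counts. It was 3575 and 3504 bp in the control, 3255 and 3070 bp with sgMiat-6 and 2659 and 2835 bp with sgMiat-96. The groups stood in the same order as by the share of counts above, with the longest mean at the smallest share. Within the control pair this did not hold, since replicate 1 had both the longer mean and the larger share. Whether the length trend came from the cells or from library preparation was not tested.

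**Figure D3:**
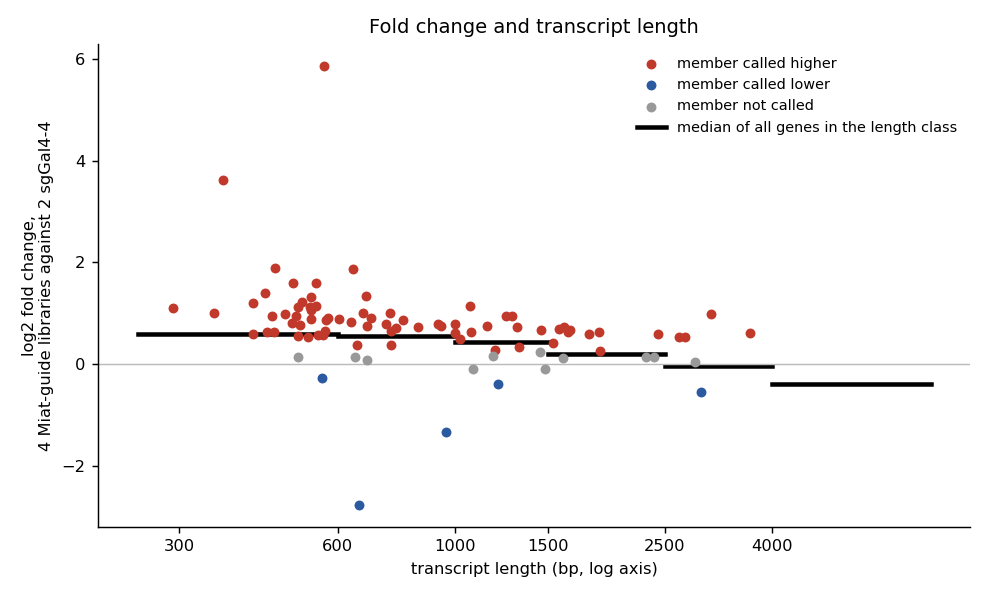
Log2 fold change of each oxidative phosphorylation gene tested against its transcript length in bp on a log axis, with black bars for the median of all genes in each length class (the last bar, for 4000 bp and over, is drawn to an arbitrary end). The bars fall from 0.58 to -0.39, and most points lie above the bar of their class.

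When the length trend was removed, of the 73 genes called higher 49 were still called higher and 3 were called lower. Of all genes, 32.6% were then higher and 32.5% lower. By class, 16 of the 35 complex I subunits were higher and 6 lower, 1 and 1 of 4 in complex II, and 5 and 2 of 9 in complex III. In complex IV it was 11 and 2 of 16, among which Cox8b and Cox6b2 are counted. In complex V it was 12 and 2 of 15, and 3 and 1 of the 7 Ndufaf factors. The class medians came down to 0.06 for the core and 0.19 for the accessory subunits of complex I, 0.10 for complex II, 0.26 for complex III, 0.29 for complex IV, 0.31 for complex V and 0.15 for the Ndufaf factors. Cycs, whose transcript of 3059 bp is long for this set, had a median of all genes of its length near 0 and kept its log2 fold change, at 1.01.

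Motifs of the factors known to regulate these genes were looked up in their promoters. Of the 93, 76 had a promoter in the RefSeq table for GRCm38.p6, from 250 bases before to 50 after the start. The letters GCGCATGC, of the factor NRF1, stood on either strand in 13 of the 76 (17.1%), against 3.05% of all 27025 promoters and 6.13% of the 9824 promoters of genes tested here. The ETS letters CCGGAAG, which GABP binds, stood in 17 (22.4%), against 9.93% and 19.6%. The YY1 letters AAGATGGC stood in 11 (14.5%), against 3.19% and 5.23%. At least 1 of these motifs was in 35 promoters, and NRF1 and ETS letters together in Atp5k, Atp5l, Cox6a1, Sdhb and Uqcr11.

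Of the promoters below, Cycs, Sdhb, Uqcr11, Cox8a and Atp5f1 belong to genes that rose and Ndufa6 to one that fell. Atp5g2 moved in opposite directions with the 2 guides, though not once the length trend was removed. Each line gives 100 bases before the start to 30 after it, 5′ to 3′ on the gene's strand in GRCm38.p6, with the motif letters in capitals.
Cycs, chr6:50566540-50566669, minus strand, NRF1: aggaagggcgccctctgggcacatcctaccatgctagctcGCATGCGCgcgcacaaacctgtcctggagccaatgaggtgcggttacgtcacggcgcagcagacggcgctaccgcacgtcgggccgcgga
Ndufa6, chr15:82354262-82354391, minus strand, NRF1: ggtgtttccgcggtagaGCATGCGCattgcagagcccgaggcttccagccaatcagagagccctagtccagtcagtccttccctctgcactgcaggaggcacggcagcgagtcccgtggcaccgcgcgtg
Sdhb, chr4:140961171-140961300, plus strand, NRF1 then ETS: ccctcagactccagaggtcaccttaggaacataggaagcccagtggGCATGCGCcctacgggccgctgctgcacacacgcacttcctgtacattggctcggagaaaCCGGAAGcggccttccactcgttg
Uqcr11, chr10:80406792-80406921, minus strand, ETS then NRF1: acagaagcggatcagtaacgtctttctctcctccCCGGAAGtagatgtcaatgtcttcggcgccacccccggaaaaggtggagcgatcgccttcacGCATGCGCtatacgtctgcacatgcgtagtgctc
Cox8a, chr19:7217587-7217716, minus strand, ETS: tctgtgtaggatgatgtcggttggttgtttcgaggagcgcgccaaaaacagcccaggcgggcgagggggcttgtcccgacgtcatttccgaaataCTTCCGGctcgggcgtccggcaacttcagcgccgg
Atp5f1, chr3:105959234-105959363, minus strand, YY1: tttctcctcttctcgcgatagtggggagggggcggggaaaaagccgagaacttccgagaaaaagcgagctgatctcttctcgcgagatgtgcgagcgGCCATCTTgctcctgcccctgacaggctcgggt
Atp5g2, chr15:102671018-102671147, minus strand, NRF1 on both strands with overlap: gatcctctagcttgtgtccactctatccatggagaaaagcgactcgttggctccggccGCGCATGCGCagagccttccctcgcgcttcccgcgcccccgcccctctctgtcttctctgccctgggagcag

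The fold changes of genes with and without the letters are given side by side. Among genes tested with a matched promoter, 11 of 13 with the NRF1 letters rose and 1 fell, at a median log2 fold change of 0.68, against 54 of 61 without them, at 0.75. With the ETS letters 16 of 17 rose, at a median of 1.07, against 49 of 57 without, at 0.70. With the YY1 letters 10 of 11 rose, at a median of 0.64, against 55 of 63 without, at 0.76. These are descriptions of letters in a fixed window, with no test.

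Complex I, the entry point for NADH, is built on a core with the flavin and iron-sulfur centres and a large set of accessory subunits. Of the 35 subunits, 30 rose, 3 fell and 2 did not pass. Ndufb2, an accessory subunit of the membrane arm, showed the largest rise among the subunits of complex I, from 30.5 and 26.7 CPM in the control to 79.7 and 88.7 with sgMiat-6 and 149 and 115 with sgMiat-96. Its log2 fold change was 1.88 (SE 0.13, adjusted p = 6.6e-08). All 4 Miat-guide libraries lay above both controls, and both sgMiat-96 libraries above both of sgMiat-6.

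Ndufb8, a membrane-arm subunit whose protein is commonly used as a marker of assembled complex I, went from 143 and 134 CPM to 381 and 450 and then to 698 and 516 (log2 fold change 1.86, SE 0.13, adjusted p = 7.2e-08). Ndufa1, an X-linked accessory subunit, was at 29.1 and 23.3 CPM, then 56.9 and 68.3, then 109.6 and 87.7 (1.59, SE 0.14, adjusted p = 6.2e-07). Neither gene's groups overlapped. With the length trend removed Ndufb2, Ndufb8 and Ndufa1 kept log2 fold changes of 1.19, 1.24 and 0.91 and stayed called.

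The core subunits moved less. Ndufs3, of the iron-sulfur arm, went from 59.2 and 57.7 CPM to 78.1 and 91.7 with sgMiat-6 and 121 and 107 with sgMiat-96 (log2 fold change 0.75, SE 0.11, adjusted p = 3.9e-05). Ndufv1, which binds NADH, was at 103 and 97.5, then 129 and 158, then 203 and 179 (0.72, SE 0.11). Ndufs7, which holds the last iron-sulfur centre before ubiquinone, reached 0.64 and Ndufs8 reached 0.49. Of these, Ndufs7 and Ndufs8 lost their call without the length trend, at 0.06 and -0.01.

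Ndufs1, the largest core subunit and the one with the most iron-sulfur centres, went the other way. It was at 179 and 186 CPM in the control, 144 and 128 with sgMiat-6 and 116 and 112 with sgMiat-96, with no overlap between the 3 groups. It fell by 0.55 on the log2 scale (SE 0.09, adjusted p = 0.00011) and was lower with each guide. Its transcript has 2927 bp, a length at which the trend over all genes crosses 0, and the value with the trend removed was -0.54.

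Among the accessory subunits, Ndufa10 and Ndufa6 were called lower. Ndufa10, of the membrane arm, was at 216 and 222 CPM in the control, 140.5 and 161 with sgMiat-6 and 188 and 181 with sgMiat-96 (log2 fold change -0.39, SE 0.09, adjusted p = 0.0017). With sgMiat-96 alone Ndufa10 was not called, at -0.25. Ndufa6, which carries the acyl carrier protein on the matrix arm, was at 109 and 104, then 69.7 and 74.9, then 119 and 95.5. Its fall was seen with sgMiat-6 (-0.56, adjusted p = 0.0019) and not with sgMiat-96 (0.01, adjusted p = 0.93), and the guides differed by 0.57 (adjusted p = 0.0042). Over both guides it was at -0.27 (adjusted p = 0.034), and that call was lost without either control library (adjusted p = 0.22 and 0.11), without sgMiat-6 replicate 1 (0.058) and without sgMiat-96 replicate 2 (0.089). Ndufc2 did not pass, at 0.08, and was called lower with the length trend removed, at -0.52.

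Complex II, or succinate dehydrogenase, is the complex built wholly from nuclear genes and also works in the tricarboxylic acid cycle. Of its 4 genes, 2 rose and 2 did not pass. Sdhd, a membrane anchor, rose from 126 and 119 CPM to 221 and 231 with sgMiat-6 and 260.2 and 225 with sgMiat-96 (log2 fold change 0.93, SE 0.10, adjusted p = 2.5e-06). Sdhb, the iron-sulfur subunit, went from 124 and 116 to 157 and 168 and then to 229.9 and 193 (0.62, SE 0.10, adjusted p = 0.00011), and lost its call with the length trend removed, at 0.15 (adjusted p = 0.062). Sdha, the flavoprotein that oxidises succinate, overlapped between groups at 262 to 295 CPM with the guides against 278 and 272 in the control (0.04, adjusted p = 0.67).

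Sdhc, the other anchor, sat on opposite sides of the control with the 2 guides. It was at 209 and 210.2 CPM in the control, 182 and 197 with sgMiat-6 and 311 and 268 with sgMiat-96. The guides differed by a log2 fold change of 0.61 (SE 0.11, adjusted p = 0.0016). Against the control, sgMiat-96 was higher by 0.47 (adjusted p = 0.0017) and sgMiat-6 did not pass, at -0.15 (adjusted p = 0.27). With the length trend removed, Sdhc was called lower with each guide, at -0.40 with sgMiat-6 and -0.18 with sgMiat-96.

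Complex III passes electrons from ubiquinol to cytochrome c, and 8 of its 9 nuclear genes rose. Uqcr11, a small subunit, was at 108 and 72.4 CPM in the control, 159 and 209.7 with sgMiat-6 and 335 and 281 with sgMiat-96 (log2 fold change 1.40, SE 0.16, adjusted p = 6.3e-06). Uqcrh, the hinge protein that helps dock cytochrome c, rose from 168 and 164 to 305 and 387 and then 407 and 374 (1.15, SE 0.11). Uqcrq was at 0.94. The groups of these 3 genes and their controls did not overlap.

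The catalytic and scaffold subunits of complex III changed less. Cyc1, the cytochrome c1 of the complex, was at 277 and 267 CPM, then 271 and 303, then 418 and 342 (log2 fold change 0.28, adjusted p = 0.026), and Uqcrc2, a core scaffold protein, was at 183 and 187, then 219 and 219.7, then 241 and 197 (0.25, adjusted p = 0.039). Uqcrb, a small subunit beside the quinone site, did not pass, at 0.14. Once the length trend was removed, Cyc1 and Uqcrb were called lower, at -0.16 (adjusted p = 0.027) and -0.54 (adjusted p = 3.6e-05), and Uqcrc2 was at 0.02. Without single libraries the calls of Cyc1 and Uqcrc2 were each lost 4 times, at adjusted p between 0.068 and 0.18 for Cyc1 and between 0.062 and 0.22 for Uqcrc2.

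Cytochrome c itself, the soluble carrier that also triggers caspase activation when released, had 129 and 128 CPM for Cycs in the control, 218 and 233 with sgMiat-6 and 309.5 and 259 with sgMiat-96. Its log2 fold change was 0.98 (SE 0.10, adjusted p = 2.2e-06), and no groups overlapped. The symbol Cycs is the only gene of that class here.

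Complex IV, cytochrome c oxidase, has tissue-specific nuclear isoforms. Of the 16 genes tested, 14 were higher and 2 were lower. The 14 include the tissue forms Cox8b and Cox6b2, which passed the filter only through the libraries with the guides, where they are high. Their calls therefore add no support. Cox8a, the ubiquitous form of the smallest subunit, went from 232 and 207 CPM to 435 and 518 with sgMiat-6 and 1054 and 790.5 with sgMiat-96 (log2 fold change 1.59, SE 0.13, adjusted p = 2.8e-07). Cox6a1, the liver or ubiquitous form of subunit VIa, rose from 191 and 195 to 338 and 409 and then to 681 and 564 (1.32, SE 0.11). Both genes differed between the guides, by 0.95 (adjusted p = 0.00081) and 0.74 (adjusted p = 0.0014).

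Cox4i1, the regulatory subunit IV that ADP and ATP bind, was the most abundant of its complex per kilobase in the control. It averaged 671 ± 3.6 CPM per kb in the control, 1119 ± 151 in the sgMiat-6 cells and 1623 ± 207 in the sgMiat-96 cells (SD, n = 2 each), with a log2 fold change of 1.01. Cox6b1, which joins the dimer, was at 1.12, Cox7a2 at 1.00, Ndufa4, now counted as a subunit of complex IV, at 0.80, and Cox7a2l, a factor for supercomplexes, at 0.74. Cox6c had the smallest rise of the genes called higher in the complex, at 0.54, and lost its call without the length trend, at -0.13 (adjusted p = 0.054), as did Ndufa4, at 0.13 (adjusted p = 0.081).

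The muscle, heart and testis forms had low counts, and they did not share a direction. Cox6a2, the heart and muscle form of VIa, was at 10.5 and 12.6 CPM in the control and at 1.24, 1.38, 2.81 and 1.501 CPM with the guides, so the groups did not overlap. It fell by 2.77 on the log2 scale (SE 0.22, adjusted p = 2.5e-07), with summed counts of 452 in the control and 128 with the guides. Cox8b, another muscle form, went the other way, from 0.31 and 0.10 CPM to between 2.25 and 3.04 CPM. Its summed counts were 8 in the control and 193 with the guides, a ratio of 12.6 (95% counting interval 6.27 to 29.6) after scaling. Muscle marker genes summed to between 0.81 and 1.89 CPM in every library, and Myog was at 0.

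Cox6b2, the testis form of VIb, had 3 counts in the control, all in replicate 1, and 362 with the guides, between 4.10 and 5.85 CPM per library. The ratio was 63.1, with a 95% counting interval of 21.4 to 307; intervals cover counting error only. Ndufa4l2, a hypoxia-responsive relative of Ndufa4, was at 1.44 and 1.57 CPM in the control and between 0.25 and 0.90 with the guides. Its log2 fold change was -1.34 (edgeR, SE 0.40, adjusted p = 0.0089). DESeq2 did not call it, at -1.35 (adjusted p = 0.055). Without sgGal4-4 replicate 2 the edgeR call was also lost, at -1.28. Cox4i2, the lung and hypoxia form of subunit IV, Cox7a1, a muscle form, Cox7b2 and Cox8c did not pass the filter. Cox4i2 had 2 counts in each control library and at most 1 with the guides, Cox7a1 had 4 to 9 in every library, Cox7b2 had at most 5, and Cox8c was at 0 in all 6 libraries.

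**Figure D4:**
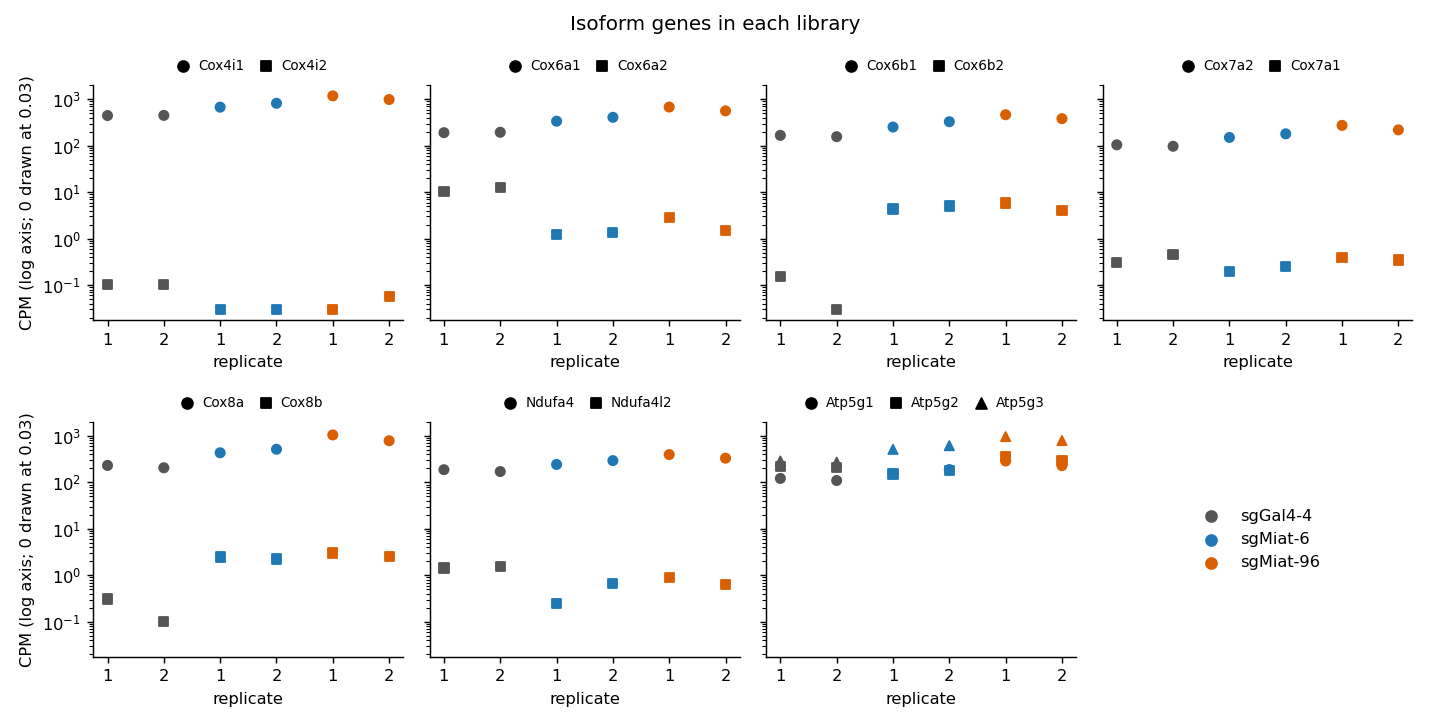
CPM of isoform genes in each library on a log axis, coloured by guide; each panel shows the ubiquitous gene or genes and their tissue forms, with a value of 0 drawn at the bottom. Cox6a2 drops from 10.5 and 12.6 CPM in the control to between 1.24 and 2.81 with the guides, while Cox6b2 and Cox8b appear.

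Complex V, ATP synthase, took the largest share of counts of the complexes, and 14 of its 15 genes rose. Atp5b, the catalytic beta subunit, was the highest member per kilobase in the control, at 792.5 ± 5.2 CPM per kb, then 1136 ± 73 in the sgMiat-6 cells and 1336 ± 20 in the sgMiat-96 cells (SD, n = 2 each), at a log2 fold change of 0.64. Atp5a1, the alpha subunit, rose from 905 and 926 CPM to 1254 and 1308 and then 1469.7 and 1464 (0.58, SE 0.09, adjusted p = 5.6e-05). Atp5l and Atp5e, small subunits, were at 1.21 and 1.20. Atp5j, a coupling factor of the stalk, had the smallest rise, at 0.37 (adjusted p = 0.0048), and lost the call without sgGal4-4 replicate 2 (adjusted p = 0.058); without the length trend it was at -0.21.

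The c subunit of ATP synthase forms the rotating ring, and 3 genes with different leader peptides encode the same mature protein. Atp5g3 was the highest of these per kilobase in every group and rose from 289.6 and 273 CPM to 515 and 619 with sgMiat-6 and 970.4 and 796 with sgMiat-96 (log2 fold change 1.33, SE 0.11, adjusted p = 4.4e-07). Atp5g1 rose by 0.86 (adjusted p = 3.8e-05), from 122 and 110.0 CPM to 153 and 189 and then 289.8 and 229.9. Atp5g2 did not follow them: it was at 219.7 and 211 CPM in the control, 152 and 183 with sgMiat-6 and 363 and 298 with sgMiat-96. It was lower with sgMiat-6, at -0.36 (adjusted p = 0.026), higher with sgMiat-96, at 0.62 (adjusted p = 0.00061), and the guides differed by 0.98 (SE 0.12, adjusted p = 0.00049). With the length trend removed, it was at -0.69 with sgMiat-6, and sgMiat-96 lay above that by 0.42. Both guides were then below the control, at -0.48 over the pair.

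Of the 7 Ndufaf assembly factors, which help build complex I and stay out of it, 4 rose and 3 did not pass. Ndufaf3 rose most, from 6.95 and 7.95 CPM to 11.7 and 14.6 with sgMiat-6 and 21.2 and 19.7 with sgMiat-96 (log2 fold change 1.14, SE 0.15, adjusted p = 2.9e-05). Ndufaf2 was at 0.75, Ndufaf4 at 0.61 and Ndufaf5 at 0.52. Ndufaf2 lost its call with the length trend removed, at 0.15 (adjusted p = 0.19), and Ndufaf6 was called lower, at -0.58. Ndufaf1, Ndufaf6 and Ndufaf7 did not pass, at 0.24, -0.11 and 0.14. The symbol matches Atp5s and Atp5sl had few counts, between 6.55 and 12.4 CPM, and did not pass. Among 40 factors for the other complexes, 18 rose and 2 fell, at a median of 0.24, where 33.1% of all genes were higher and 33.4% lower. After removal of the length trend, 15 were higher and 9 lower, at a median of 0.06. Coa4, for complex IV, rose by 1.30, Sdhaf1, for complex II, by 1.17 and Cox19, a copper factor, by 1.12. Pet117, which works with complex IV, fell by 1.22 and Taco1, a translation factor for a mitochondrial complex IV subunit, by 0.46.

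**Figure D5:**
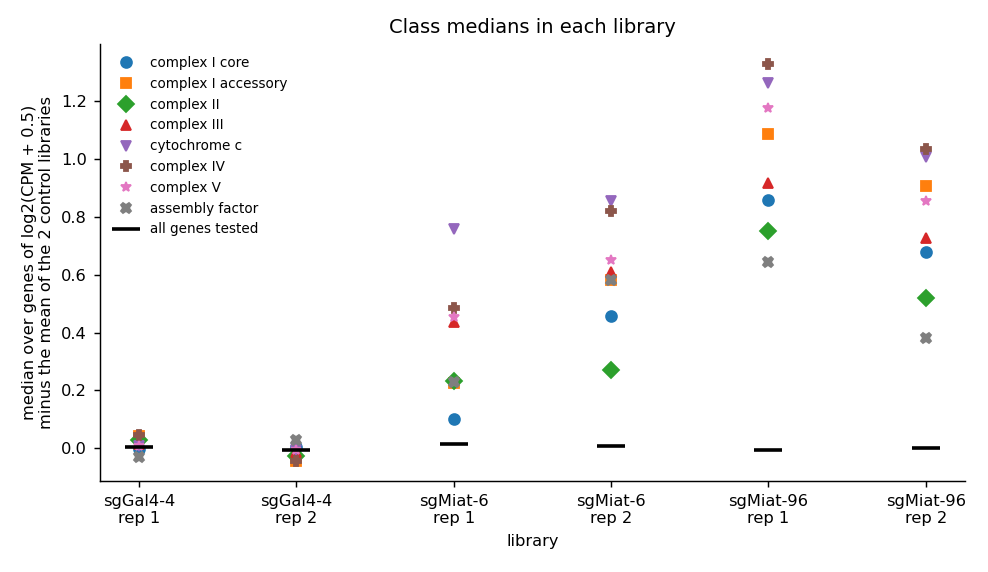
Median over the genes of each class of log2(CPM + 0.5) in each library, minus the mean of the 2 sgGal4-4 libraries; black dashes are all genes tested. The classes reach between 0.64 and 1.33 in sgMiat-96 replicate 1 and between 0.10 and 0.76 in sgMiat-6 replicate 1, while all genes stay near 0.

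The rise was larger with sgMiat-96 before the length trend was removed. Against the control, 60 of 89 members were higher and 6 lower with sgMiat-6, at a median of 0.50, where 26.9% of all genes were called higher and 26.1% lower. With sgMiat-96, 76 were higher and 2 lower, at 0.95, where 34.0% and 34.2% of all genes were. The comparisons share their controls, and 60 genes were higher in each. Directly, 64 genes were higher with sgMiat-96 than with sgMiat-6 and 0 lower (edgeR; 17.8% of all genes higher and 18.8% lower), at a median of 0.48. By unadjusted p under 0.05, 1 was lower, and DESeq2 also called 0 lower. All 28 accessory subunits of complex I were in that set, along with 5 of 7 core subunits, 2 of 4 of complex II, 5 of 9 of complex III, 11 of 16 of complex IV, 10 of 15 of complex V and 1 of 7 Ndufaf factors.

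The count between the guides changed with the length trend and with single libraries. With the length trend removed, 7 members were higher and 8 lower with sgMiat-96 than with sgMiat-6, at a median of -0.01, where 12.3% of all genes were higher and 11.5% lower. For sgMiat-6 against the control, 47 were then higher and 12 lower (28.8% and 27.3% of all genes), and for sgMiat-96 45 and 15 (32.3% and 32.5%). The member medians against the control were then 0.23 with sgMiat-6 and 0.19 with sgMiat-96. Without sgMiat-96 replicate 1, 9 members were called higher between the guides, where 4.69% of all genes were, and without sgMiat-6 replicate 1, 25, where 8.40% were. Replicates moved the members as a block: sgMiat-6 replicate 2 was above replicate 1 for 83 of 89, and sgMiat-96 replicate 1 was above replicate 2 for 88.

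Genes on chromosomes 1 and 15 were lower in general. Counting genes whose CPM averaged 5 or more, the median log2 fold change was -0.47 for 604 genes on chromosome 1 and -0.37 for 414 on chromosome 15, against 0.02 for all 10582. Of the 11 members on these chromosomes, 5 rose, 3 fell and 3 did not pass, at a median of 0.16. Of the 78 elsewhere, 68 rose, 2 fell and 8 did not pass, at 0.74. The medians of all genes were -0.43 on chromosomes 1 and 15 and 0.06 elsewhere. The share of all genes called on these chromosomes was not counted, so the member counts stand without it. Ndufs1, Ndufa10, Sdhc, Ndufb3 and Cox5b are among those on chromosome 1, and Ndufa6, Ndufb9, Cyc1, Cox6c and Atp5g2 on chromosome 15, so that all but Cox6a2 and Ndufa4l2 of the genes that fell were there. The part of the chromosome in these values was not tested.

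The regulators of these genes moved in both directions. Of 19 regulators and mitochondrial DNA factors, 4 rose and 6 fell, neither share above that of all genes (33.1% higher and 33.4% lower). Ppargc1a, the co-activator that drives mitochondrial biogenesis in many tissues, was at 43.8 and 41.5 CPM in the control, 28.9 and 18.0 with sgMiat-6 and 15.01 and 17.1 with sgMiat-96. It fell by 1.14 on the log2 scale (SE 0.16, adjusted p = 2.9e-05), and Ppargc1b, its relative, fell by 1.35. Esrra, a nuclear receptor that works with them, rose from 45.2 and 37.3 CPM to 76.6 and 83.0 and then 96.8 and 95.3 (1.08, SE 0.11, adjusted p = 2.1e-06). Nrf1 did not pass, at 0.13 (adjusted p = 0.27), Gabpa, the DNA-binding part of GABP, fell by 0.41 (adjusted p = 0.0074) and Tfam, which packages and transcribes mitochondrial DNA, by 0.26 (adjusted p = 0.031). With the length trend removed, Ppargc1a was at -0.66, Esrra at 0.94, and Gabpa and Tfam, both at -0.10, did not pass. Mterf4, a factor of mitochondrial ribosome assembly, rose by 2.05 and Polg, the mitochondrial DNA polymerase, by 0.89, while Tfb2m, a mitochondrial transcription factor, fell by 0.85.

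Neighbouring steps of energy metabolism are given for comparison, with no test between lists. Beside them, 33.1% of all genes were higher and 33.4% lower, and 32.6% and 32.5% with the length trend removed. Of 13 genes of the tricarboxylic acid cycle, 6 rose, with Mdh2 at 0.69, Suclg1 at 0.53 and Idh3a at 0.48, and 2 fell, among them Ogdh, by 0.41. Removing the length trend left 4 higher and 3 lower, neither share above that of all genes. The median went from 0.23 to 0.11, and Ogdh did not pass, at 0.11. Of 10 carriers, porins and kinases tested of 11 listed, 9 rose and 1 did not pass, at a median of 0.70; with the length trend removed 6 were higher and 1 lower, at 0.28. Slc25a4, an ADP/ATP carrier, went from 364 and 348 CPM to 620 and 656 with sgMiat-6 and 896 and 813 with sgMiat-96 (log2 fold change 1.05, SE 0.09, adjusted p = 5.3e-07). Slc25a5, its relative in dividing cells, rose by 0.95, and Ckmt1, a mitochondrial creatine kinase at under 2 CPM, by 1.67.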

How the data were processed

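RNA from 6 samples was sequenced, 2 for each guide. Per the submitters' processing notes, the authors aligned reads with STAR to GRCm38 (mm10); versions, the counter and its strand setting are not stated there. For each RefSeq transcript the authors deposited the count with its FPKM and TPM, per the file headers. The deposited FPKM values served only to recover transcript lengths and to set to 0 the 11223 rows of sgMiat-96 replicate 2 listed at 1 with an FPKM of 0. The deposited TPM values were not used. Of 33984 rows for 24063 symbols, the row with the highest total count was kept per symbol, since isoform rows share reads. Ndufs5 has the same counts as another symbol, BC002163, and is uncertain.

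Counts were tested with edgeR 4.0.16 in R 4.3.3: filterByExpr by group, TMM scaling, 1 coefficient per guide over all 6 libraries (3 residual degrees of freedom), the quasi-likelihood test and Benjamini-Hochberg adjustment over all 13220 genes, at 0.05. SE is the log2 fold change over the root of F. CPM are TMM-scaled; a count of 3 equals 0.149 to 0.173 CPM, by library. A loess, on log transcript length, of each library's deviation from the mean log CPM of all libraries (span 0.3) gave the offset that removed the length trend. The script was tested on simulated data. The members and lists were chosen with earlier results of these data known. The genes named were, per class, up to 3 with the highest and 3 with the lowest fold change, every member that fell, did not pass the test or was filtered out, the extremes between the guides, the isoform sets, and up to 3 called genes in each direction of each pathway list with 5 regulators. Some genes that this rule names are not reported here. Ndufaf5, chosen after its values were seen, and the promoters shown fall outside that rule. Alternatives were DESeq2 1.42.0, other scalings, no filter, other isoform rows, a replicate block, and leaving out each library.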

Additional observations from a re-analysis of the deposited data

Results flagged for a closer look

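Among the members, 2 genes lay below both controls in each sgMiat-6 library and above both in each sgMiat-96 library. For Atp5g2 the guides differed by a log2 fold change of 0.98 (edgeR, adjusted p = 0.00049), and for Sdhc by 0.61 (adjusted p = 0.0016). With the length trend removed, both were called lower over the 2 guides, at -0.48 and -0.29. Both lie on chromosomes whose genes were lower in general.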

How the results depend on the processing

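With DESeq2's size factors or test, no filter, counts as listed and other isoform rows, every count of members called stayed within 1.5 times the reported count, and every class median within its replicate spread. Under total counts alone, the median of all genes fell by 0.13. Members stood at 0.57, complex II at 0.26, complex III at 0.54 and Cycs at 0.85. With sgMiat-96, 4 members were lower than the control, where 42.0% of all genes were. Against sgMiat-6, 42 members were higher with sgMiat-96 and 1 lower, where 10.4% and 28.1% of all genes were.

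The length trend removed alone, and then with the replicate block too, left members at medians of 0.24 and 0.24. Members lower over both guides numbered 15 and 15, beside 32.5% and 31.7% of all genes. Lower with sgMiat-6 were 12 and 11 (27.3% and 26.2% of all genes). Higher with sgMiat-96 were 45 and 42 (32.3% and 31.1%) and lower with it 15 and 14 (32.5% and 31.4%). Between the guides 7 and 6 were higher (12.3% and 10.4%) and 8 and 6 lower (11.5% and 9.75%). With both changes, 48 were higher over both guides (31.7%). Class medians were 0.064 and 0.064 for the complex I core, 0.19 and 0.19 for its accessory subunits, 0.095 and 0.095 for complex II, 0.26 and 0.26 for complex III, 0.29 and 0.29 for complex IV, 0.31 and 0.31 for complex V and 0.15 and 0.15 for the Ndufaf factors. Atp5g2 (-0.48 and -0.48), Atp5j (-0.21 and -0.21), Cox6c (-0.13 and -0.13), Cyc1 (-0.16 and -0.16), Ndufb4 (-0.076 and -0.076), Ndufc2 (-0.52 and -0.52), Ndufs8 (-0.0059 and -0.0054), Sdhc (-0.29 and -0.29) and Uqcrb (-0.54 and -0.54) turned negative, and Ogdh positive (0.11 and 0.10). Nrf1 was at -0.34 with its shortest row (adjusted p = 0.023). For Nrf1 the cause was not tested.

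Same-numbered replicates share only a number: the correlations of their deviations were 0.01, -0.09 and -0.21. The replicate block alone left 72 members higher and 4 lower over both guides, where 31.2% and 31.9% of all genes were.

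Leaving out each library in turn gave 67 to 74 members higher and 3 to 5 lower over both guides, 47 to 66 and 3 to 6 with sgMiat-6, 73 to 79 and 2 to 3 with sgMiat-96, and 9 to 69 higher and 0 to 1 lower between the guides. A group left with 1 library is assumed to vary like the others. The lowest medians between the guides came without sgMiat-6 replicate 1 and without sgMiat-96 replicate 1, at 0.33 and 0.33. Depth limits Cox6b2, Cox8b, Ndufa4l2 and the 4 genes that were not tested.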
